A study of Mus musculus with 8 samples.

Results

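The 7 genes described here are the heterochronic Hmga, Lin28 and Igf2bp genes: Hmga1, Hmga2, Lin28a, Lin28b, Igf2bp1, Igf2bp2 and Igf2bp3. Each was found by its symbol in the authors' deposited comparison table and read under the same gene identifier in the TPM table, so they are 7 of 55385 genes. TPM is a transcript abundance corrected for transcript length and scaled to the same total in every library, so levels of different genes can be set side by side. The RNA came from neural stem and progenitor cells (NSPCs) sorted out of mouse cortex at postnatal day 7. The 4 iKO libraries were from mice with the genotype Nestin-CreERT2; Ash2lf/f; tdTomato, which carry an inducible Cre under the Nestin promoter, a floxed Ash2l gene and a red fluorescent reporter. The 4 WT libraries were from mice with Nestin-CreERT2; tdTomato, so the controls carried the Cre and the reporter but no floxed allele. ASH2L belongs to the COMPASS family complexes, which write H3K4 methylation. The sources used here do not give the inducing treatment or its time. They also tie no library to 1 animal, so a p-value here covers the spread among the libraries, which may be technical.

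Heterochronic genes set the timing of development, and this family is best known as a switch between fetal and adult stem cell states. LIN28A and LIN28B bind precursors of the let-7 microRNAs and block their maturation, while mature let-7 binds the 3′ untranslated regions (3′UTRs) of its target mRNAs and lowers their output. Mouse and human Lin28, Hmga2 and Igf2bp mRNAs are classic let-7 targets. HMGA1 and HMGA2 are small chromatin proteins that bind AT-rich DNA through AT-hooks, and HMGA2 is known for sustaining the self-renewal of fetal neural stem cells. IGF2BP1, IGF2BP2 and IGF2BP3 bind mRNAs, among them Igf2 mRNA, and affect their stability, transport and translation.

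The family is tied together by the let-7 seed, the stretch of bases 2 to 8 that a microRNA uses to find its targets, so the mature microRNAs are shown with the seed in capitals, 5′ to 3′. Sequences are from RefSeq on GRCm38.p6. The seed GAGGUAG was shared by 10 mature mouse names, of which 4 are shown. The remaining sequence, miR-125b, is encoded near let-7 genes and has another seed.
let-7a-5p: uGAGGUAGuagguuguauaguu
let-7c-5p: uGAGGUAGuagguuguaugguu
let-7i-5p: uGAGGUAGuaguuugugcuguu
miR-98-5p: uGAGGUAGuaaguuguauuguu
miR-125b-5p: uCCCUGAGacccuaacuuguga

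All 7 members held the complement of this seed, CTACCTC, in the 3′UTR of their longest coding transcript in GENCODE M21. The letters were searched on the transcript strand. Among 20981 mouse coding genes with a 3′UTR, 8.85% held the motif at least once and 1.07% at least 2 times. Hmga2, Lin28b and Igf2bp1 each had 4 matches, Lin28a had 2, and Hmga1, Igf2bp2 and Igf2bp3 had 1 each. Of coding genes with a 3′UTR within 25% of the member's length, as many matches were held by 0.141% for Hmga2, 0.239% for Lin28b, 0.266% for Igf2bp1 and 1.98% for Lin28a. For the members with 1 match that share was 8.005% for Hmga1, 11.3% for Igf2bp2 and 12.7% for Igf2bp3. A match is a description of the letters and not a measured binding site.

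Some of the matches are printed below, 5′ to 3′ on the transcript strand, with the motif in capitals. The motif is alike in all of them because its letters were searched for. In all but Hmga1 the printed motif is followed by an a, the context of the strongest class of predicted let-7 sites. For Hmga2, Lin28b and Igf2bp1 only the matches followed by an a are printed, which are 1 of 4, 1 of 4 and 3 of 4. Of the 2 Lin28a matches, both followed by an a, the first is printed. Coordinates are on GRCm38. The sites are at chr10:120364224-120364246 for Hmga2, chr10:45381022-45381044 for Lin28b, chr4:134005189-134005211 for Lin28a, chr16:22059473-22059495 for Igf2bp2 and chr6:49086787-49086809 for Igf2bp3, all on the minus strand. Those of Igf2bp1 are at chr11:95961778-95961800, chr11:95959357-95959379 and chr11:95958763-95958785 on the minus strand. The Hmga1 site is at chr17:27563277-27563299 on the plus strand.
Hmga2 site 1: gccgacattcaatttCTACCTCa
Lin28b site 1: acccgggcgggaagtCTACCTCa
Lin28a site 1: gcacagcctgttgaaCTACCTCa
Igf2bp1 site 1: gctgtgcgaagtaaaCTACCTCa
Igf2bp1 site 2: cagcagtgctattaaCTACCTCa
Igf2bp1 site 3: gtataaatggatgaaCTACCTCa
Igf2bp2 site 1: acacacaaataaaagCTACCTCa
Igf2bp3 site 1: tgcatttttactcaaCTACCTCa
Hmga1 site 1: tcctctgttcacaaaCTACCTCt

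The targeted gene and the makeup of the libraries bear on every value below. Ash2l was 7.54, 6.11, 7.69 and 7.18 TPM in the iKO libraries and 18.1, 16.1, 19.2 and 17.2 TPM in WT, so the iKO libraries kept 40.4% of the WT mean. The number of genes at 1 TPM or more was 16089 to 16616 per library, and the sequencing depth behind the TPM values is unknown. Of the listed markers of NSPCs and radial glia, 10 of 10 were measured, of which 2 were higher, 5 lower and 3 did not pass. Nes was at 70.6 TPM in iKO against 59.6 TPM in WT, and Fabp7 at 925 TPM against 664 TPM. The list's summed level was 3304 to 3381 TPM in iKO against 3895 to 3978 TPM in WT. A large part of that sum was Slc1a3, at 1241 TPM in iKO against 2039 TPM in WT. The libraries also held markers of other cells, and several of these lists did not overlap between groups. Summed astrocyte markers were 5750 to 5976 TPM in iKO against 8433 to 8714 TPM in WT, and 9 of 11 were lower. Microglial markers were 553 to 571 TPM against 685 to 734 TPM, with 7 of 9 lower. Endothelial markers were 878 to 922 TPM against 509 to 538 TPM, with 9 of 10 higher. Erythroid markers were 721 to 840 TPM against 69.98 to 81.1 TPM, and airway and olfactory epithelial markers 191 to 230 TPM against 10.4 to 13.4 TPM. No marker on these lists was at 0 in all libraries. The part of these differences in the members' values was not tested, and in sorted bulk RNA fewer cells of a type and less RNA per cell cannot be told apart.

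All 3 Igf2bp genes and Hmga1 were lower in iKO than in WT, Hmga2 was lower at a trace level, and Lin28a and Lin28b were barely detected in either group. A gene entered the test across all genes if it reached 1 TPM in at least 4 libraries, which 16413 genes did. It was called changed at a Benjamini-Hochberg adjusted p under 0.05 in limma on log2(TPM + 1). Hmga1, Igf2bp1, Igf2bp2 and Igf2bp3 entered and were called lower; the comparison called 52.6% of all tested genes, 31.9% as lower and 20.7% as higher. Igf2bp1 entered only through its WT values, since 0 of 4 iKO libraries reached 1 TPM, so a count over the members that entered carries no weight of its own. For these 4 and for Hmga2 the highest iKO library was below the lowest WT library. The same held for 29.9% of tested genes, and groups did not overlap in either direction for 49.2%. Hmga2, Lin28a and Lin28b fell below that limit and were compared by an exact permutation test instead.

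**Figure D1:**
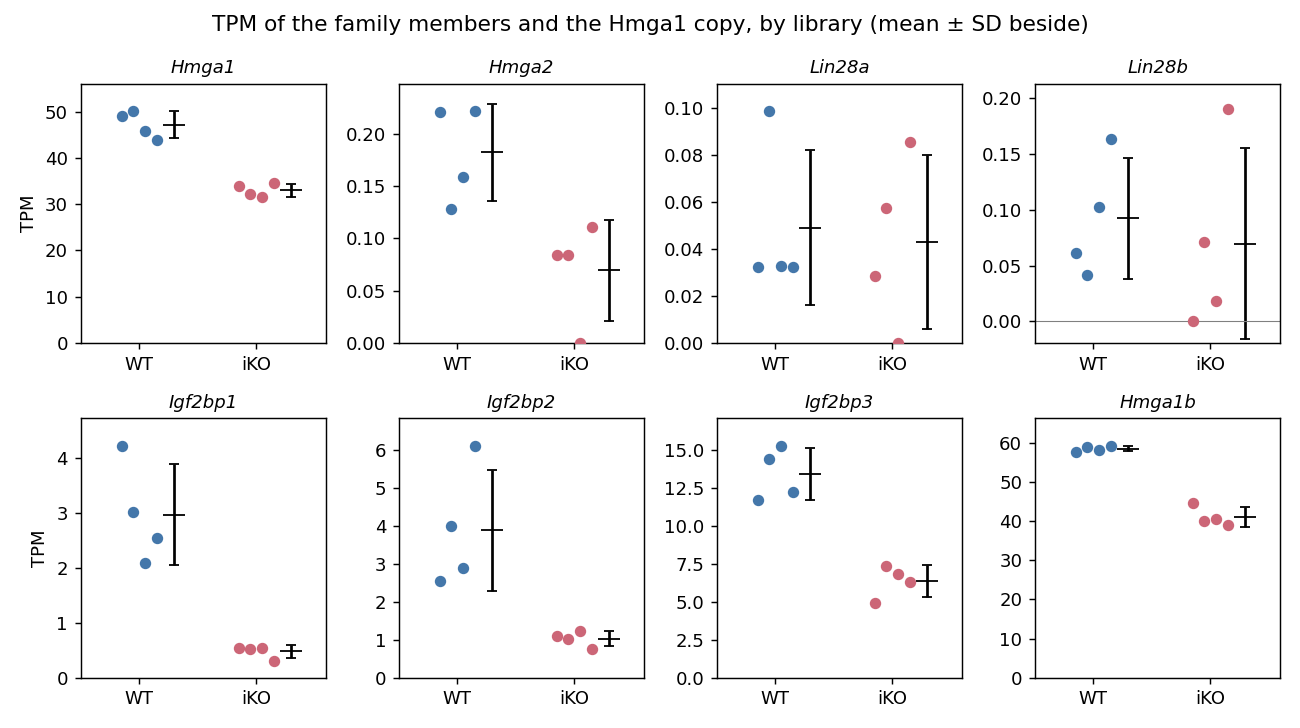
TPM of the 7 members and of Hmga1b, a near-identical copy of Hmga1, in each of the 4 WT (blue) and 4 iKO (red) libraries, with the mean and SD of each group beside the points; each panel has its own linear axis. The iKO points lie below all WT points for Hmga1, Hmga2, Igf2bp1, Igf2bp2, Igf2bp3 and Hmga1b, and overlap them for Lin28a and Lin28b.

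Igf2bp3 was the most abundant of the 3 RNA-binding members. IGF2BP3 is known as an oncofetal protein, abundant in embryonic tissue and in several cancers. Its level was 4.89, 7.34, 6.86 and 6.33 TPM in iKO replicates 1 to 4 and 11.7, 14.4, 15.2 and 12.2 TPM in WT replicates 1 to 4. The groups did not overlap, and the highest iKO library was at 62.8% of the lowest WT library. The means were 6.36 ± 1.06 TPM (iKO) and 13.4 ± 1.71 TPM (WT; SD, n = 4), a 2.11-fold lower level. On the log2(TPM + 1) scale Igf2bp3 fell by 0.97 (SE 0.123, limma adjusted p = 0.000192). A limit is that the gene, at chr6:49085223-49214957 on the minus strand of GRCm38, shares 1529 bases of transcript sequence with Malsu1 on the plus strand, and no source says whether strand was used in counting. Malsu1, a mitochondrial ribosome assembly factor, rose from 29.2 ± 2.64 to 39.6 ± 3.39 TPM (log2 difference 0.43, limma adjusted p = 0.00193), the opposite direction.

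Igf2bp1 showed the lowest relative level of the tested members. IGF2BP1, also called ZBP1 or IMP1, is known for carrying beta-actin mRNA in growing axons and for a fetal pattern of expression in the brain. The iKO libraries were at 0.547, 0.525, 0.545 and 0.295 TPM, and the WT libraries at 4.22, 3.03, 2.10 and 2.55 TPM. All iKO values were under 1 TPM and all WT values above 2 TPM, and replicate 4 was the lowest of the iKO libraries. The means of 0.478 ± 0.122 and 2.97 ± 0.913 TPM (SD, n = 4) left iKO at 16.1% of WT. The log2(TPM + 1) difference was -1.40 (SE 0.162, limma adjusted p = 0.000107), and the log2 ratio of the mean TPM was -2.64. The added 1 TPM sets the size of such a difference for a gene this low: it was -2.39 with 0.1 TPM added and -0.53 with 5 TPM added. The gene lies at chr11:95957163-96005940 on the minus strand.

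Relative to its mean, Igf2bp2 was the most variable of the 3 in WT. IGF2BP2 is the member that persists most widely in adult tissues and is known as a target of HMGA2 as well as of let-7. It measured 1.10, 1.03, 1.23 and 0.753 TPM in iKO and 2.56, 3.98, 2.90 and 6.10 TPM in WT. WT replicate 4 stood highest, but the lowest WT library was still above every iKO library. Mean levels were 1.03 ± 0.201 and 3.88 ± 1.596 TPM (SD, n = 4), or 26.5% of WT. The log2(TPM + 1) difference was -1.22 (SE 0.206, limma adjusted p = 0.00108); with 0.1 TPM added it was -1.76, and with 5 TPM added -0.54. Igf2bp2 lies at chr16:22059009-22163299 on the minus strand.

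Summed over the 3 genes, Igf2bp TPM was 6.53 to 8.90 in iKO and 18.5 to 21.4 in WT. Relative to its mean, the sum was steadier across WT libraries than Igf2bp1 or Igf2bp2 taken alone, with 20.3 ± 1.28 TPM against 7.86 ± 1.11 TPM in iKO (SD, n = 4). Igf2bp3 made up 66.1% of the sum in WT, with libraries from 58.6% to 75.3%, and 80.6% in iKO, with libraries from 74.8% to 85.8%. Igf2bp1 held 14.9% in WT and 6.14% in iKO. Igf2bp2 held 18.995% and 13.2%.

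Whether the members fell by different amounts was tested on the log2 ratio of each pair within a library, for the 6 pairs of the 4 tested members. The Igf2bp1 to Igf2bp3 ratio was lower in iKO by 1.55 on the log2 scale (-1.55, exact permutation p = 0.0286, Benjamini-Hochberg value over the pairs 0.0429). Hmga1 stood higher relative to each Igf2bp gene in iKO than in WT, by 2.12 against Igf2bp1, 1.34 against Igf2bp2 and 0.57 against Igf2bp3 on the log2 scale, each with the same exact permutation p. That p is the smallest that 4 libraries against 4 can give. The Igf2bp1 to Igf2bp2 ratio differed by -0.78 (exact permutation p = 0.114, adjusted 0.114) and the Igf2bp2 to Igf2bp3 ratio by -0.77 (exact permutation p = 0.0857, adjusted 0.103), so these pairs did not separate beyond the spread between libraries.

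Hmga1 was the most abundant member and had the smallest relative difference of the 4 tested. Its product opens chromatin and remains in many dividing progenitor populations after birth. The iKO libraries measured 33.8, 32.1, 31.6 and 34.5 TPM, and the WT libraries 49.1, 50.1, 45.8 and 44.0 TPM. Both groups were tight and did not overlap. The means were 33.0 ± 1.38 and 47.2 ± 2.84 TPM (SD, n = 4), so iKO was at 69.9% of WT, with a log2(TPM + 1) difference of -0.50 (SE 0.0505, limma adjusted p = 4.59e-05). Hmga1 lies at chr17:27556497-27563674 on the plus strand.

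The Hmga1 value is uncertain in a particular way, because the intronless gene Hmga1b at chr11:120762794-120764419 matched it at 99.8% identity over 1538 aligned bases, and short reads from them can be split between both. The copy's seed match has the same letters as that of Hmga1. Hmga1b was listed at 44.6, 39.95, 40.6 and 39.1 TPM in iKO and 57.8, 59.0, 58.2 and 59.2 TPM in WT. It showed a log2(TPM + 1) difference of -0.50 (SE 0.0427, limma adjusted p = 1.68e-05), close in size to that of Hmga1. The sum of both was 74.1 ± 3.01 TPM in iKO against 106 ± 2.74 TPM in WT (SD, n = 4), and its difference was -0.51 (limma adjusted p = 4.40e-06). TPM divides reads by transcript length, 2001 bases for Hmga1 and 1626 for Hmga1b, so the summed TPM still depends in part on how reads were shared out. The protein-coding gene AI413582 overlaps Hmga1 on the other strand and was at 19.8 TPM in iKO against 17.1 TPM in WT (limma adjusted p = 0.0613).

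Hmga2, the member most tied to fetal neural stem cells, was at trace level. It was listed at 0.0838, 0.0837, 0 and 0.111 TPM in iKO and at 0.221, 0.128, 0.159 and 0.222 TPM in WT. The groups did not overlap, although all 8 values were under 0.3 TPM and 1 iKO library was at 0. The means were 0.0697 ± 0.0482 and 0.182 ± 0.0465 TPM (SD, n = 4; exact permutation p = 0.0286, the smallest possible). Among 7700 genes below the limit with a value above 0 in at least 4 libraries, 23.2% reached that p, and 14.6% did so with iKO the lower group. When every gene was fitted with no lower limit, the limma adjusted p of Hmga2 was 0.0665, and in the authors' deposited table it was 0.142 at a log2 fold change of -1.31. Leaving out 1 library at a time raised the exact permutation p to 0.0571 for 5 of the 8 libraries (iKO replicates 1, 2 and 3, and WT replicates 1 and 4).

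Lin28a and Lin28b, the upstream blockers of let-7 maturation, were barely detected in these postnatal cells. Lin28a measured 0.0287, 0.0575, 0 and 0.0857 TPM in iKO and 0.0323, 0.0985, 0.0327 and 0.0325 TPM in WT (exact permutation p = 0.8). Lin28b measured 0, 0.0708, 0.0179 and 0.190 TPM in iKO and 0.0613, 0.0414, 0.103 and 0.164 TPM in WT (exact permutation p = 0.6). For both genes the groups overlapped, with the highest value in WT replicate 2 for Lin28a and in iKO replicate 4 for Lin28b. A difference was not detectable at these levels, and the direction of Lin28a turned when iKO replicate 3 or WT replicate 2 was left out. The genes that mark pluripotent and germ cells gave a like picture, since 12 of 12 fell below the limit for testing and Dppa4 and Utf1 were at 0 in all libraries.

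In order of level, WT cells had Hmga1, then Igf2bp3, then Igf2bp2 and Igf2bp1, then Hmga2, Lin28b and Lin28a. The WT values of Igf2bp1 and Igf2bp2 overlapped, as did those of Hmga2 with Lin28b and of Lin28b with Lin28a. In iKO the 4 most abundant kept this order, here with no overlap between Igf2bp1 and Igf2bp2, while Hmga2, Lin28a and Lin28b all overlapped. Set among the 16413 tested genes, 151 had a log2(TPM + 1) difference at or below that of Igf2bp1, which is 0.920% of them. The same share was 1.46% for Igf2bp2, 2.596% for Igf2bp3 and 11.8% for Hmga1. Called genes at -1 or below made up 2.22% of those tested.

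**Figure D2:**
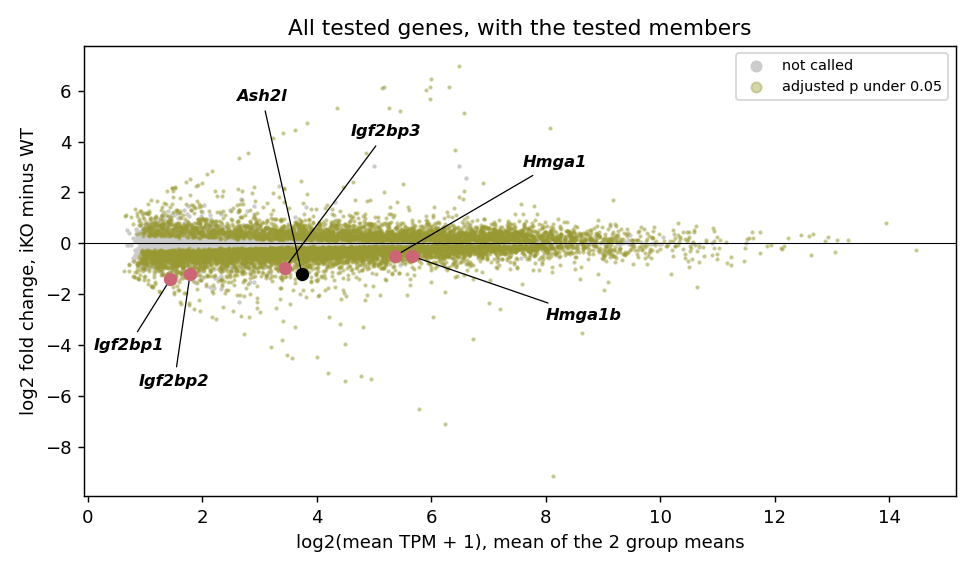
Each point is a tested gene, with log2(mean TPM + 1) on the horizontal axis and the log2(TPM + 1) difference, iKO minus WT, on the vertical axis; called genes are olive and others grey. The labelled red points are the tested members and Hmga1b and the black point is Ash2l: the Igf2bp genes lie toward the lower edge of the cloud, at -1.40, -1.22 and -0.97, and Hmga1 and Hmga1b inside it at -0.50.

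The authors' deposited table gave the same direction for all 7 members. In the authors' deposited table the log2 fold change was -2.05 for Igf2bp1 (adjusted p = 4.05e-40), -1.19 for Igf2bp2 (adjusted p = 1.09e-09), -1.09 for Igf2bp3 (adjusted p = 7.99e-41) and -0.50 for Hmga1 (adjusted p = 9.05e-16). Lin28a at -0.11 (SE 1.18) and Lin28b at -0.81 (SE 0.912) did not pass there, with adjusted p of 0.961 and 0.525 in the authors' deposited table. Each of these 2 values is smaller than its SE, so it sets no direction. That table called 33.9% of the 29438 genes with an adjusted p, and 16.7% as lower. It rests on the same 8 libraries and is not a separate experiment.

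A score of Y-linked genes over Xist, used as a guide to the sex makeup of the libraries, moved with the groups. It was -0.82 to -0.26 in the iKO libraries and 0.57 to 1.011 in WT. Whether it reflects the sex of the mice or a change in these genes was not tested. With that score in the limma model, 423 genes were called in place of 8629. None of the 4 fitted members passed in that model (1 had an unadjusted p under 0.05, Igf2bp1), with differences of -2.48 for Igf2bp1 (adjusted p = 0.0597), -1.06 for Igf2bp3 (adjusted p = 0.326), -0.47 for Hmga1 (adjusted p = 0.291) and -0.47 for Igf2bp2 (adjusted p = 0.815). Ash2l itself did not pass there (-1.07, limma adjusted p = 0.142). Because the score did not overlap between groups, sex makeup and genotype cannot be told apart.

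**Figure D3:**
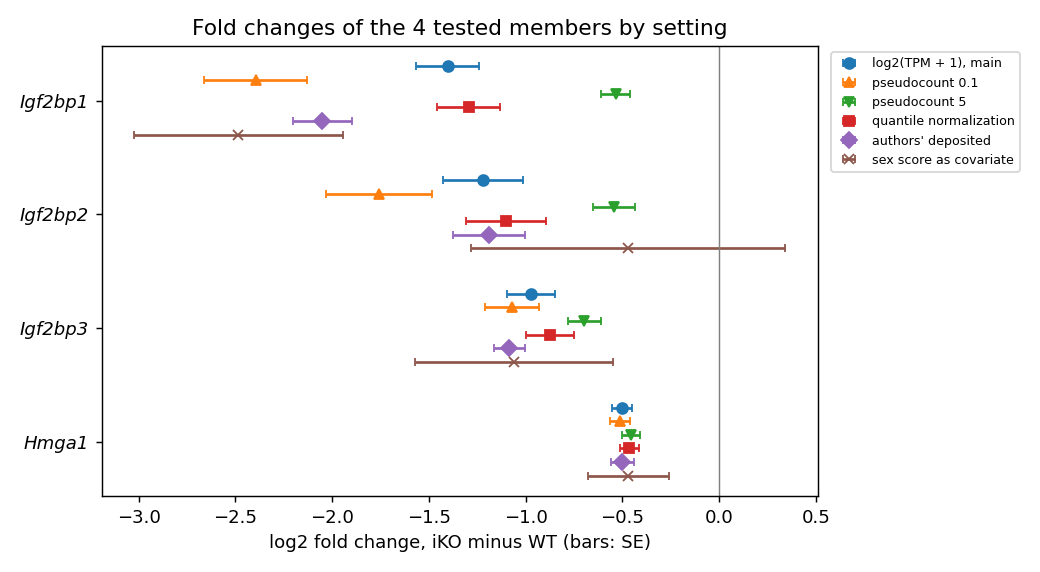
The difference between iKO and WT of the 4 tested members under 6 settings, as a log2 fold change on the horizontal axis with bars of 1 SE. All points are below 0; those of Igf2bp1 and Igf2bp2 move furthest, with the value added before the logarithm (-2.39 to -0.53 for Igf2bp1) and with the sex score in the model (-2.48 for Igf2bp1 and -0.47 for Igf2bp2).

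Complexes with ASH2L are known to act at promoters rich in the dinucleotide CG. The promoters of Igf2bp2 and Igf2bp3 are shown as a description of their letters, and any part of these letters in the genes' levels was not tested. Both promoters are from RefSeq on GRCm38.p6, run from 250 bases before the start to 50 after, and are printed 5′ to 3′ on the gene's strand with each CG in capitals. The Igf2bp3 window is chr6:49214905-49215204 and that of Igf2bp2 is chr16:22163250-22163549, both on the minus strand.
Igf2bp3 promoter: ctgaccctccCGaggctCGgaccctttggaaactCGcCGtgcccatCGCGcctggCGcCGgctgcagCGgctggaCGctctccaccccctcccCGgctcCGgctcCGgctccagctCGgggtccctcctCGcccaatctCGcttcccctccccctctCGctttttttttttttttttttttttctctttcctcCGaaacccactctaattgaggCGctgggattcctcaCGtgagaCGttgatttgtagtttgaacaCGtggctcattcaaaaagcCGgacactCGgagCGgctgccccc
Igf2bp2 promoter: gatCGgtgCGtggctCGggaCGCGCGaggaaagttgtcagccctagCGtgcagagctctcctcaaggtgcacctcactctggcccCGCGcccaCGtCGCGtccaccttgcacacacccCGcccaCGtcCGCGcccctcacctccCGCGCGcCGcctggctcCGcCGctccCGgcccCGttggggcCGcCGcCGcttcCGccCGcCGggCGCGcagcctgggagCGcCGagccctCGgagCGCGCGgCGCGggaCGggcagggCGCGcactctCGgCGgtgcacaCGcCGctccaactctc

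The Igf2bp2 window held 47 CG, as many as only 1.44% of 32851 mouse promoter windows, and the Igf2bp3 window held 25, a number reached by 18.4%. The Hmga1 windows held 40 and 38. The windows of Hmga2, Lin28a and Lin28b, the members at trace level, held 12, 10 and 8. That of Hmga1b, which was not at trace level, also held 8, and the median over all windows was 7. Igf2bp1 has no entry. These are counts of letters, and no chromatin mark was measured in these libraries.

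Transcripts around let-7 itself were measured next. Mature microRNAs are too short for these libraries, and the rows of let-7 hairpins were at 0, so only longer host genes that span a let-7 hairpin could be followed. On the list of named hosts 4 were tested, of which 0 were higher, 2 lower and 2 not called (median -0.30). Pank1, on that list and not called (log2 difference 0.05, limma adjusted p = 0.652), spans no let-7 or miR-98 hairpin in GENCODE M21. The count and median of the list include it. A wider search by position in GENCODE M21 was added after the values could be seen. Of 9 genes found so 8 were tested, and 4 were lower, 0 higher and 4 did not pass. Across all tested genes 31.9% were called lower and 20.7% higher, and neither host count was tested against these shares. Mir99ahg, the host of let-7c-1, fell from 163 ± 7.64 to 108 ± 4.62 TPM (log2 difference -0.59, limma adjusted p = 5.46e-06). Mir100hg, the host of let-7a-2, fell from 130 ± 6.55 to 95.4 ± 2.79 TPM (log2 difference -0.44, limma adjusted p = 2.26e-05). These long noncoding RNAs also carry miR-125b genes, and in both the lowest WT library was above the highest iKO library. Spaca6 over let-7e (10.6 to 5.71 TPM) and Wdr82 over let-7g (44.9 to 35.2 TPM) were lower too. Huwe1 over let-7f-2 and miR-98 was at 15.6 TPM in iKO against 17.7 TPM in WT (limma adjusted p = 0.0779), and Lncppara over let-7b and let-7c-2 at 8.74 TPM in iKO against 7.07 TPM in WT (limma adjusted p = 0.0548). Another host that did not pass, 6720427I07Rik over let-7a-1, let-7d and let-7f-1, was at 1.15 TPM in iKO against 1.49 TPM in WT (limma adjusted p = 0.0684). D630033A02Rik over let-7i was at 2.32 TPM in iKO against 1.76 TPM in WT (limma adjusted p = 0.462). The level of a host is not the level of the mature let-7, which was not measured.

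Genes of let-7 processing moved in both directions. Of 19 tested, 3 were higher, 4 lower and 12 were not called; the median log2 difference was -0.08 against -0.06 over all tested genes. Hnrnpa1, whose protein binds the let-7a precursor, rose from 404 ± 7.27 to 534 ± 5.70 TPM (limma adjusted p = 2.48e-07). Khsrp, which promotes let-7 processing, rose from 9.04 to 11.998 TPM (limma adjusted p = 0.00107). Trim25, a cofactor of LIN28A-dependent uridylation, fell from 4.43 ± 0.551 to 2.29 ± 0.190 TPM (limma adjusted p = 0.000196). Ddx5, a helicase of the Drosha complex, fell from 2066 to 1846 TPM (limma adjusted p = 6.08e-06). Dicer1, the enzyme that cuts the hairpin, was at 5.90 TPM in WT and 5.39 TPM in iKO and did not pass (limma adjusted p = 0.267). Trim71, a heterochronic let-7 target also on this list, was at trace level with 0.0131 and 0.0175 TPM.

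Other known let-7 targets moved in both directions. Of 31 tested, 5 were higher, 10 lower and 16 did not pass, and the median was -0.02. The shares among all tested genes were 31.9% lower and 20.7% higher, with a median of -0.06, and the list was not tested against them. Mycn, which drives progenitor growth, fell from 194 to 156 TPM (log2 difference -0.32, limma adjusted p = 2.11e-06). Ccnd2, a G1 cyclin, fell from 2201 to 1950 TPM, and Zfp322a fell from 21.4 to 14.2 TPM. Sorted by the seed motif and leaving out the members, 11797 tested genes with no match had a median of -0.05, with 32.8% called lower. The 1165 genes with 1 match had a median of -0.07 with 34.9% lower, the 141 with 2 matches -0.09 with 36.2% lower, and the 19 with at least 3 matches -0.08 with 21.1% lower. In the same order, from no match up, 22.8%, 19.1%, 20.6% and 10.5% were called higher. Among the 19 genes 4 were lower and 2 higher. The median 3′UTR length also rose over these groups, from 1042 bases with no match to 2215, 3525 and 4466 bases. The part of that length was not tested.

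Downstream of HMGA2, the brake on stem cell division is known to run through JUNB and the INK4 and ARF inhibitors. On that list of 15 tested genes, 5 were higher, 3 lower and 7 did not pass, with a median of 0.05. Junb was at 693 TPM in WT and 695 TPM in iKO (limma adjusted p = 0.906). Cdkn2a, the INK4A and ARF gene, was listed at 0 in all iKO libraries and in WT replicates 1 and 2, and at 0.188 and 0.187 TPM in WT replicates 3 and 4. Cdkn2b, its neighbour encoding INK4B, rose from 7.84 ± 0.729 to 16.1 ± 1.13 TPM (log2 difference 0.95, limma adjusted p = 9.70e-06). Cdkn2d rose from 91.0 to 120 TPM, and Cdk4, the kinase these inhibitors bind, from 886 to 1128 TPM. Cdkn1a, the p21 gene, fell from 65.4 ± 2.85 to 27.99 ± 2.04 TPM (log2 difference -1.20, limma adjusted p = 4.87e-07).

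The insulin-like growth factor genes, for which the Igf2bp proteins are named, were mixed. Of 17 tested, 4 were higher, 6 lower and 7 did not pass, with a median of 0.04. Igf2 was at 39.5 ± 1.94 TPM in iKO against 31.5 ± 5.46 TPM in WT (SD, n = 4; log2 difference 0.33, limma adjusted p = 0.0258), and its groups overlapped. Igf2 is also a marker of meningeal fibroblasts. Their 8 listed markers, Igf2 among them, were mixed, with 3 higher, 4 lower and 1 that did not pass. The 8 summed to 173 to 180 TPM in iKO against 193 to 215 TPM in WT. The part of these cells in the Igf2 value was not tested. Igfbp3, a secreted binding protein, fell from 31.8 to 14.9 TPM (log2 difference -1.04, limma adjusted p = 5.12e-07), and Igfbp2 rose from 444 to 534 TPM. Insr, the insulin receptor, rose from 52.7 to 65.9 TPM, while its adaptor Irs2 fell from 13.9 to 9.94 TPM.

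mRNAs known to be bound by IGF2BP proteins were followed as a further list of 11 tested genes, of which 4 were higher, 2 lower and 5 did not pass (median 0.04). Actb, the classic IGF2BP1 cargo, fell from 1709 to 1554 TPM (log2 difference -0.14, limma adjusted p = 0.000415). Gap43, a growth cone protein whose mRNA travels with it, rose from 103 to 138 TPM, Cd44 from 11.96 to 15.3 TPM and Mapt from 134 to 149 TPM. Gap43 and Mapt are neuronal genes. Of 7 tested mature neuron markers 4 were higher and 1 lower, and the list summed to 244 to 253 TPM in iKO against 176 to 188 TPM in WT. Of 9 neuroblast markers 6 were higher and 3 lower, with summed levels of 2323 to 2398 TPM in iKO against 2233 to 2280 TPM in WT. The part of either list in these values, or in that of Elavl4 below, was not tested. Proteins found in the same RNA granules gave 5 higher, 5 lower and 7 not passed of 17 (median -0.01). Ybx1 rose from 218 to 297 TPM and Elavl4, a neuronal RNA-binding protein, from 97.3 to 135 TPM, while Hnrnpu fell from 173 to 131 TPM and Syncrip from 133 to 117 TPM.

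IGF2BP proteins also read N6-methyladenosine (m6A), a methyl mark on mRNA. Of 15 genes that write, erase or read the mark, 3 were higher, 4 lower and 8 did not pass (median -0.05). The eraser Fto fell from 112 ± 6.29 to 58.9 ± 0.488 TPM (log2 difference -0.92, limma adjusted p = 2.86e-07), a difference close in size to that of Igf2bp3. The other eraser, Alkbh5, rose from 36.6 to 44.6 TPM. The writer subunits Wtap, from 20.5 to 33.9 TPM, and Mettl3, from 67.9 to 78.6 TPM, rose as well.

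Other high mobility group genes, which share the name but not the AT-hook of the Hmga genes, gave 3 higher, 5 lower and 4 not passed of 12 (median -0.01). Hmgn2, a nucleosome-binding protein, fell from 1660 ± 8.40 to 1110 ± 44.4 TPM (log2 difference -0.58, limma adjusted p = 3.02e-07), slightly more than Hmga1. Hmgb1 fell from 1091 to 943 TPM, and Hmgb3 rose from 692 to 768 TPM.

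Regulators of the timing of neural progenitors were a list of 23 tested genes, of which 0 were higher, 12 were lower and 11 did not pass, with a median of -0.13. Over all tested genes 31.9% were called lower and 20.7% higher, with a median of -0.06, and the list was not tested against them. Zbtb20, a factor of late progenitors and astrocytes, fell from 633 to 473 TPM (log2 difference -0.42, limma adjusted p = 2.53e-07). Nfix, which promotes the gliogenic and quiescent state, fell from 621 to 494 TPM (log2 difference -0.33, limma adjusted p = 4.52e-07). Msi2, an RNA-binding protein of stem cells, fell from 136 to 119 TPM. Several of these genes are also high in astrocytes, and the astrocyte marker sums given above were lower in iKO; their part in this count was not tested.

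**Figure D4:**
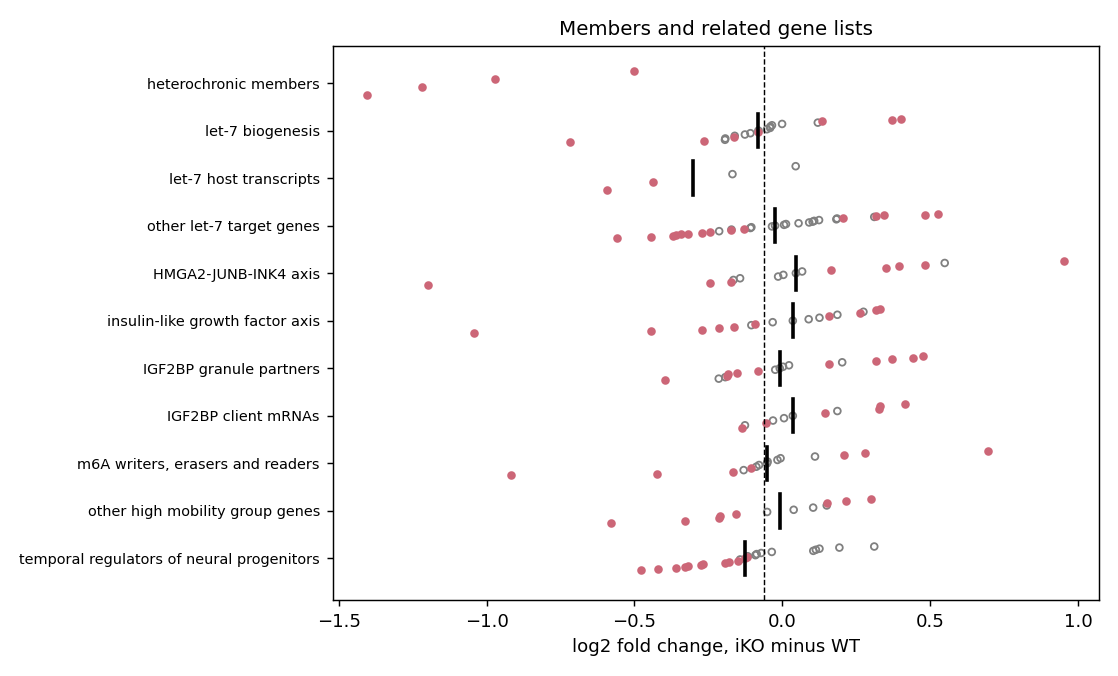
The log2(TPM + 1) difference, iKO minus WT, of each tested gene in each pathway list; filled points are called at an adjusted p under 0.05 and open points are not, black bars are medians of the lists other than the members and the dashed line is the median of all tested genes, -0.06. The members' points lie at -0.50 and below. Most other lists have points on both sides of 0 and medians between -0.13 and 0.05. The exception is the list of 4 let-7 host transcripts at -0.30, which includes Pank1, a gene without a let-7 hairpin.

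The profile most like each tested member over the 8 libraries was sought among protein-coding genes only, without those under predicted or clone names. The measure was the root mean square difference of log2(TPM + 1) after subtracting the WT mean. For Igf2bp3 the genes most alike were Cdh19 (0.0953) and Fam107a (0.128), and for Igf2bp1 Ms4a6b (0.170) and Rpl8 (0.199). For Igf2bp2 the differences were larger, with Lyve1 at 0.224 and Mrpl54 at 0.239. Those of Hmga1 were Ttr (0.0393) and Mif4gd (0.0416). The 8 points share their libraries and the difference between the groups, so the measure is a description of these profiles.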

How the data were processed

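RNA of sorted NSPCs underwent Smart-Seq2 amplification and paired-end sequencing, per the labels' protocols. The authors deposited TPM per gene and library, and a comparison table with a mean normalized signal, a log2 fold change, a test statistic (a score) and p-values, per the file headers. Not given in the sources used here are the aligner, quantifier, annotation and genome build, and 0 value columns lacked a sample.

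Groups came from sample titles. TPM are not counts, so limma 3.58.1 (R 4.3.3) was run on log2(TPM + 1) with its trend and robust options, over genes at 1 TPM or more in at least 4 libraries. P-values were two-sided and Benjamini-Hochberg adjusted over all 16413 genes. Fold changes on this scale understate those of low genes. Members below the limit, and ratios of members, had exact two-sided permutation tests over 70 assignments. The procedure was tested on simulated data.

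The members and lists were chosen with earlier results of these data known. Named genes were the members, Ash2l, near-identical copies, up to 4 genes per pathway list with the smallest p, Igf2, Junb, Cdkn2a, Trim71, Mycn and Dicer1, and the 2 genes most like each tested member. Host genes of let-7, overlapping genes and cell markers were named beyond this rule, after values could be seen. Some genes that met the rule are not reported here.

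Alternatives were a replicate block, each library left out, other pseudocounts, filters, scalings and moderation, array weights, a sex score and the deposited comparison; summing Hmga1 with its copy was added after seeing the data. GENCODE M21 on GRCm38 matched 99.6% of gene identifiers but may not be the authors' annotation. Copies were sought with blastn 2.17.0 at 95% identity over at least 200 bases. Figures used matplotlib 3.10.9 in Python 3.11.15.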

Additional observations from a re-analysis of the deposited data

Results flagged for a closer look

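Each member and Ash2l were checked in both groups for a library far from the others. In 2 groups of 4 libraries, 1 library lay far from the other 3. The gap to its nearest neighbour, divided by the range of the group, was above Dixon's 95% critical value for 4 samples, which chance alone passes in about 5% of groups. For Igf2bp1, iKO replicate 4 was at 0.295 TPM while the other iKO libraries were at 0.525 to 0.547 TPM, a ratio of 0.9138. For Lin28a, WT replicate 2 was at 0.0985 TPM while the other WT libraries were at 0.0323 to 0.0327 TPM, a ratio of 0.9934. These Lin28a values are all at trace level, with a deposited mean normalized signal of 1.49, so the ratio says little about that library. Without iKO replicate 4 the log2(TPM + 1) difference of Igf2bp1 was -1.34 (limma adjusted p = 0.000491).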

How the results depend on the processing

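Hmga1, Igf2bp1, Igf2bp2 and Igf2bp3 were lower in iKO and passed in every setting run except the sex score, for which the cause was not tested (Igf2bp1 and Igf2bp2 by the exact permutation test where a mean of 5 TPM was required). With the sex score as covariate, 423 genes were called (195 higher, 228 lower), and 0 of the 4 fitted members passed in limma (1 at an unadjusted p under 0.05), with log2 differences of -1.07 for Ash2l, -0.47 for Hmga1, -2.48 for Igf2bp1, -0.47 for Igf2bp2 and -1.06 for Igf2bp3. Hmga2 no longer passed with no filter (-0.14) or in the authors' deposited table (-1.31), and ranged from -0.17 to -0.11 with each library left out. Lin28a ranged from -0.028 to 0.0139 with each library left out and so changed sign; it passed in neither case. With each library left out, 7942 to 8216 genes were called, against 8629 with all. Same-numbered libraries did not deviate together (correlations from -0.04 to 0.00), though this check cannot exclude that the numbers mark pairs. With the replicate block 8097 genes were called and all 4 fitted members passed. Trimmed mean scaling called 4315 genes higher and 4197 lower, and quantile normalization 4175 and 4233, against 3392 and 5237 with TPM as deposited; the median of all tested genes moved from -0.06 to 0.00 in both, and the 4 members kept their direction and call. The members below 1 TPM were not fitted with the block, quantile normalization, moderation, array weights or the sex score. TPM keep no depth, so no limit of detection in TPM can be given for Hmga2, Lin28a and Lin28b. The authors' deposited mean normalized signal shows how little these 3 genes rest on. It was 4.17 for Hmga2, 1.49 for Lin28a and 2.64 for Lin28b, against 104 for Igf2bp1 and 493 for Hmga1.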
